A study of Danio rerio with 25 samples.

Results

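The circadian clock genes described here are 6 of the 32520 zebrafish genes counted, taken by their Ensembl identifiers: per1a (ENSDARG00000056885), per1b (ENSDARG00000012499), per2 (ENSDARG00000034503), per3 (ENSDARG00000010519), nr1d1 (ENSDARG00000033160) and clocka (ENSDARG00000011703). All 6 had enough counts to be tested in both experiments. The name table gives human symbols, with PER1 for both per1a and per1b, so genes outside these 6 are named here by the table's symbol and, where copies share it, by their identifier.

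The vertebrate clock is a loop of transcription and repression with a period of about a day. CLOCK and BMAL proteins bind E-box sequences as a pair and switch on the per and cry genes, whose Period and Cryptochrome proteins accumulate and repress that pair, while nr1d1 encodes REV-ERB alpha, a nuclear receptor that represses bmal transcription. The RNA of these genes therefore goes up and down with the time of day. In zebrafish, cells of most tissues hold a clock that light can reset directly, and per2 is known as a gene that light induces.

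The series has 25 libraries of whole larvae. The first experiment exposed larvae of the Tg(Ola.Sp7:nlsGFP) line, whose osteoblasts carry a nuclear fluorescent protein, to 10 µM dexamethasone (DEX), a synthetic glucocorticoid, and sequenced 3 libraries on each of 5 days, D3, D4, D5, D6 and D7. The second sequenced 5 libraries of cdkn1a crispants and 5 of wild-type (WT) larvae. Crispants are mosaic animals, raised after an injection of Cas9 and pooled guide RNAs against the beginning of the second exon of cdkn1a, which encodes the cell cycle inhibitor p21, and their edited and unedited cells were sequenced together. No library of DEX-free larvae of the same course was analysed here, so the exposure and normal development cannot be told apart between days. The methods count the days from fertilization and the sample labels from the addition of DEX, and the labels give neither a day for WT and crispant libraries nor an hour of collection for any library. The methods name the same range of days for WT and crispant larvae as for the DEX course, without a day for each library, so these libraries may differ in age. The label texts do not say whether libraries of a group came from separate clutches, so the p-values measure only the spread between these libraries. In whole larvae, fewer cells that express a gene and less RNA per cell cannot be told apart.

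Between 13685297 and 21812411 counts fell on genes per DEX library, and between 30330699 and 38467088 per library of the second experiment. Within a day the 3 DEX libraries are lettered a, b and c, and the c library stood apart from the other 2 throughout: the squared differences of counts between a and b were 5.15 to 29 times those of binomial sampling, and those of pairs with c were 54.2 to 156 times. The libraries of the second experiment fell into 2 sets along the first principal component (38.2% of the variance), a second set of 2 crispant and 2 WT libraries and a first set of 3 and 3, and the numbers in the names of the crispant columns start again where the second set begins. Pairs of 1 group that crossed the sets reached 78.3 to 107 times binomial sampling. The edited gene cdkn1a had 1.66 and 1.67 CPM (counts scaled to library size, with TMM factors) in crispants and 3.63 and 4.58 CPM in WT larvae of the second set, and 8.58, 10.1 and 8.34 CPM in crispants and 17.9, 17.6 and 21.9 CPM in WT larvae of the first set. It was lower in crispants within both sets, by edgeR's quasi-likelihood test with Benjamini-Hochberg adjustment (log2 fold change -1.30, standard error 0.21, adjusted p = 2.78e-04 in the second set, and -1.08, standard error 0.14, adjusted p = 6.48e-06 in the first). These p-values only describe these libraries, as the sets were found from the values. Of the fixed tissue markers, 5 of the whole-larva list could be matched, and liver (fabp10a, lowest 40.5 CPM), skin (krt4, lowest 1309 CPM), neuron (elavl3, lowest 24.3 CPM), beta cell (ins, lowest 8.09 CPM) and osteoblast (sp7, lowest 1.62 CPM) genes were counted in every DEX library.

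The Period genes per1a, per1b and per3, and nr1d1 had their highest a and b libraries on D4 or D5, and their a and b libraries of D7 lay below those of D3. Set beside a and b of the same day, their c libraries lay lower on D3 to D5 and higher on D6 and D7. The gene clocka stood low on D3 and D4 and reached its highest a and b values on D7. The plot of CPM by day gives every library.

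**Figure D1:**
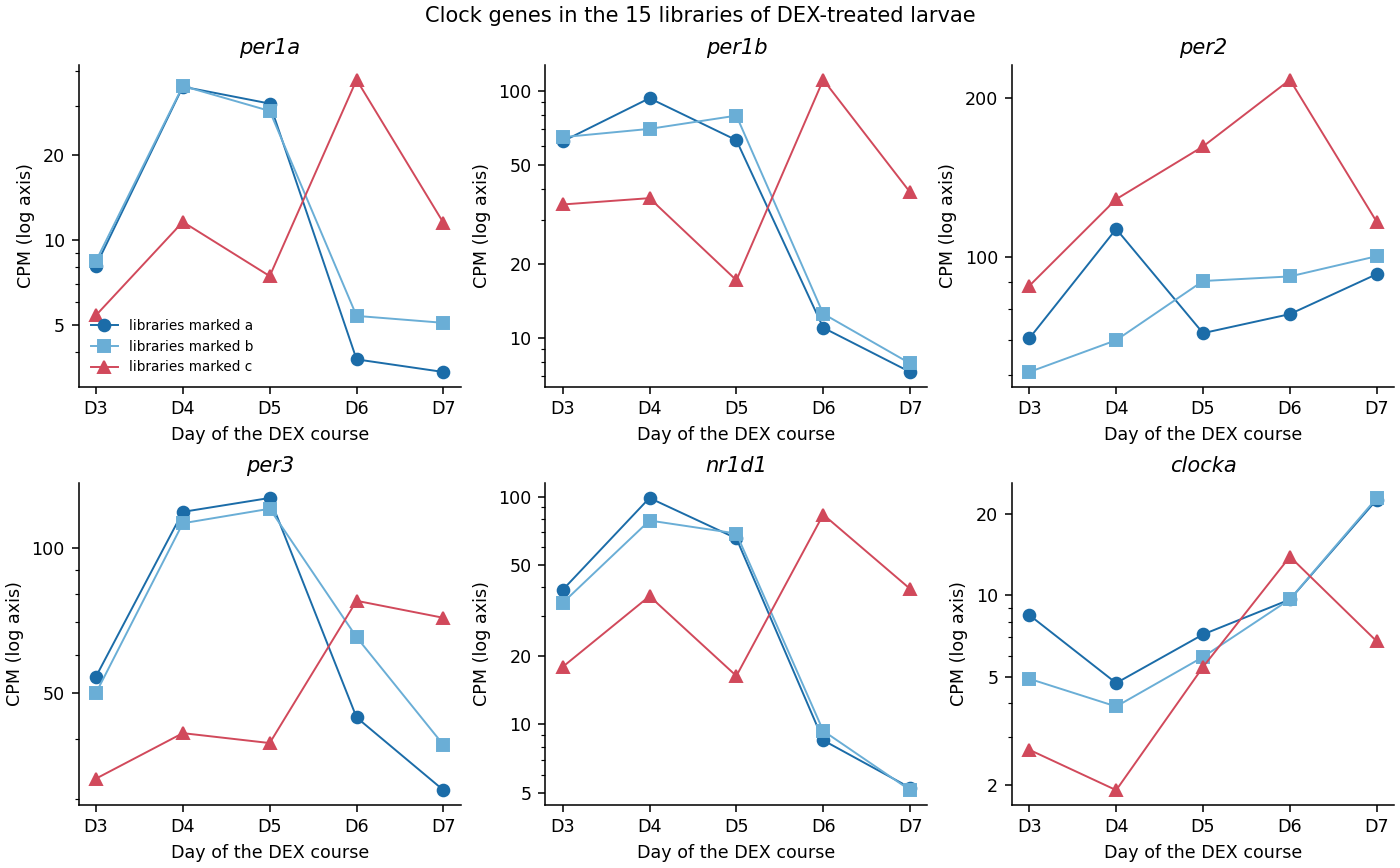
CPM after TMM scaling (log axis) of the 6 clock genes against day of the DEX course, with 1 point per library and 1 line per letter (a, b and c). The a and b lines of per1a, per1b and nr1d1 lie above the c line on D3 to D5 and below it on D6 and D7, with per1b at 111 CPM in the c library of D6 beside 11.01 and 12.5 CPM in a and b, whereas the c line of per2 is the highest on all 5 days.

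The gene per1a, a Period repressor, had 8.11, 8.42 and 5.40 CPM in the a, b and c libraries of D3, 35.1, 35.3 and 11.6 CPM on D4 and 30.6, 28.8 and 7.44 CPM on D5. Its values were 3.76, 5.37 and 37.2 CPM on D6 and 3.39, 5.08 and 11.5 CPM on D7. The a and b libraries of D4 and D5 stood well above those of every other day, while the highest library of all was the c library of D6.

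For per1b, the closely related second copy, the values were 62.5, 65.0 and 34.7 CPM on D3, 93.4, 70.2 and 36.8 CPM on D4 and 63.2, 79.4 and 17.1 CPM on D5, in the same order of letters. On D6 it had 11.01, 12.5 and 111 CPM, and on D7 it had 7.29, 7.90 and 38.9 CPM. Every a and b library of D6 and D7 lay below all 9 libraries of D3 to D5, and the c library of D6 was the highest of the 15.

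The light-induced Period gene per2 had 70.4, 60.8 and 88.4 CPM on D3, 113, 69.8 and 129 CPM on D4 and 72.0, 90.2 and 162 CPM on D5. It had 78.2, 92.1 and 216 CPM on D6 and 93.0, 100.5 and 117 CPM on D7. The c library was the highest on each of the 5 days, and a and b spanned 60.8 to 113 CPM over the course. With day medians of 70.4, 113, 90.2, 92.1 and 100.5 CPM from D3 to D7, no day stood clear of its neighbours.

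The third Period gene per3 had 54.0, 49.9 and 33.1 CPM on D3, 119, 112.5 and 41.2 CPM on D4 and 127, 121 and 39.3 CPM on D5. Its values on D6 were 44.4, 65.2 and 77.6 CPM, and on D7 they were 31.3, 38.9 and 71.5 CPM. Thus its a and b libraries stood at their highest on D4 and D5, as for per1a, but its c libraries of D6 and D7 exceeded the others of their day by less.

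The REV-ERB gene nr1d1 had 39.0, 34.2 and 17.9 CPM on D3, 98.9, 78.7 and 36.6 CPM on D4 and 65.7, 69.0 and 16.3 CPM on D5. It had 8.52, 9.37 and 83.6 CPM on D6 and 5.27, 5.15 and 39.4 CPM on D7. The a and b libraries of D7 were the lowest of the course, next to a c library that had more than every library of D3.

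In the a and b libraries, the activator gene clocka ran the other way. Its highest c library was that of D6, as for the other genes described here. The gene had 8.46, 4.93 and 2.70 CPM on D3, 4.75, 3.90 and 1.92 CPM on D4, 7.18, 5.93 and 5.45 CPM on D5, 9.66, 9.67 and 13.9 CPM on D6 and 22.5, 22.8 and 6.77 CPM on D7. The order of the day medians was D4, D3, D5, D6 and D7 from low to high, and all D6 libraries lay above all D3 libraries, whereas the c library of D7 fell within the range of D3.

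In the five-group model of all 15 libraries, 1 of the 6 genes differed between any days, against 17% of the 21750 genes tested (edgeR's quasi-likelihood F test, adjusted p below 0.05). That gene was clocka, with an adjusted p of 0.0177 in this edgeR test. The adjusted p was 0.224 for per1a, 0.6 for per1b, 0.636 for per2, 0.29 for per3 and 0.518 for nr1d1 in the same edgeR test. The call of clocka was lost without the a library or without the b library of D7, when 0 of the 6 were called, and without the c library of D6 there were 2 calls. The shares of all genes in these fits are not given here.

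Between the ends of the course, clocka rose to a mean of 17.4 ± 9.19 CPM on D7, against 5.36 ± 2.91 CPM on D3 (SD, n = 3 each). This is a log2 fold change of 1.70, with a standard error of 0.48 and an adjusted p of 0.0199 by edgeR's quasi-likelihood test. It was the only one of the 6 genes called between D7 and D3, where 25.3% of all genes were called, and it was not called when any 1 of 4 libraries was left out, b or c of D3 or a or b of D7 (adjusted p of clocka by edgeR between 0.0598 and 0.0725). The log2 fold changes of D7 over D3 were -0.14 for per1a (standard error 0.79), -1.59 for per1b (standard error 0.88), 0.50 for per2 (standard error 0.39), 0.05 for per3 (standard error 0.47) and -0.87 for nr1d1 (standard error 0.93), none past the threshold. Leaving out the c library of D7 moved per1b to -2.78 and nr1d1 to -2.49, and leaving out a or b of D7 moved nr1d1 to -0.41 or -0.40, still without a call. Such standard errors leave room for sizeable changes, so these values do not show that D7 and D3 were alike.

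Neither of the day-by-day designs called any of the 6 genes with edgeR's quasi-likelihood test. Each day against the other 4 days gave 0 calls, where 7.95% of all genes were called on at least 1 day. An unadjusted p below 0.05 belonged to 3 comparisons of members, those of clocka on D4 and D7 and of per1b on D7. DESeq2 called 1 of the 6. The shares of all genes beside these last 2 counts are not given here. The smallest adjusted p in edgeR's test, 0.0933, belonged to clocka on D7, with 1.41 on the log2 scale against other days (standard error 0.43). Against the mean of the other day means in the five-group model, clocka was higher on D7 by 1.54 (standard error 0.34, adjusted p = 0.0089 by edgeR), where 6.83% of all genes were higher. Successive days also gave 0 calls, where 0.198% of all genes were called in at least 1 of the 4 comparisons. There the only unadjusted p below 0.05 was that of per1a on D4 against D3 (log2 fold change 1.90, standard error 0.80, unadjusted p = 0.0316 and adjusted p = 0.602 by edgeR). DESeq2 called 0 of the 6 between successive days, beside 0.106% to 1.16% of all genes at each step. It gave per1a no adjusted p in these comparisons, so its count does not cover per1a.

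The c libraries were then compared with the a and b libraries of the same day, as a term in a model of day and letter. Only per2 differed between letters (adjusted p = 0.012 by edgeR's quasi-likelihood F test), where 29.5% of all genes did. It was higher in c libraries than in a and b libraries on all 5 days, by 0.72 on the log2 scale (standard error 0.16, adjusted p = 0.0033 by the same edgeR test, where 40.6% of all genes were called). By day, 24.3% to 83.7% of all genes had a smaller difference of c from a and b than per2. As c stood apart in these same counts, the p-values of c against a and b only describe these libraries. Without the c library of D5, 0 of the 6 genes differed between letters, and without the a or the c library of D6 there were 2. For these fits too, the shares of all genes are not given here. For clocka the c libraries differed by -0.70 (standard error 0.27, adjusted p = 0.0546 by edgeR), and this passed the threshold with no filter on low counts (0.0402) or with at least 10 counts in every library (0.0371).

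A term for the letter averages over days, and for per1a, per1b, nr1d1 and per3 the difference of the c library changed sign within the course. The c library of per1b lay 0.87, 1.13 and 2.04 below the mean of a and b (log2 CPM) on D3, D4 and D5, and 3.22 and 2.34 above it on D6 and D7. The differences of nr1d1 were -1.02, -1.27 and -2.03 on D3 to D5 and 3.21 and 2.89 on D6 and D7. Those of per1a were -0.60, -1.59, -1.98, 3.01 and 1.44, and those of per3 were -0.65, -1.49, -1.65, 0.53 and 1.03, from D3 to D7.

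Over all genes the median size of this difference was 0.40 to 0.62 on the 5 days, and 98.8% of genes had a smaller one than per1b, and 98.8% a smaller one than nr1d1, on D6. That share on D6 was 98.5% for per1a but 43.5% for per3. On D3 it was 65.5% to 82.1% for per1a, per1b, per3 and nr1d1. The a and b libraries of these 4 genes differed by at most 0.56 on the log2 scale on any day. Other genes moved with the letter too: 3 of the 5 whole-larva markers differed between c and the other libraries, beside 40.6% of all genes. The skin gene krt4 had 6710 and 6285 CPM in the c libraries of D6 and D7, against 1309 to 2165 CPM in a and b, and ins and elavl3 were lower in c. Their part in the clock gene values was not tested, nor was any difference in the hour of collection, which the labels do not give.

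**Figure D2:**
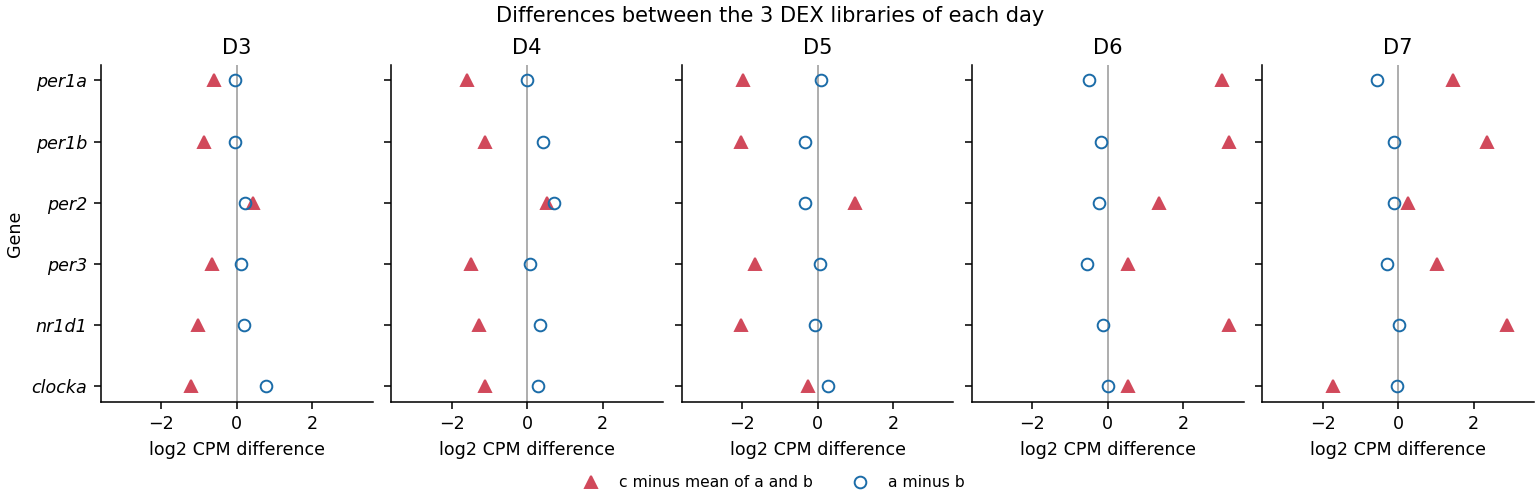
Difference in log2 CPM of the c library from the mean of the a and b libraries (triangles) and of a from b (circles) for each clock gene on each day. The triangles of per1a, per1b, per3 and nr1d1 lie left of 0 on D3, D4 and D5 and right of it on D6 and D7, at 3.22 for per1b on D6, while the circles of these genes stay within 0.56 of 0.

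Since the c libraries stood apart, the course was also fitted to the 10 a and b libraries, 2 a day. The c libraries were left out on account of their values, so the p-values and calls of this fit only describe these 10 libraries. Its standard errors were smaller, 0.19 for per1b between D7 and D3 in place of 0.88 with all 15 libraries. This fit called 48.3% of all genes in the test of any day and 5 of the 6 clock genes, all except per2 (adjusted p = 0.138 by edgeR's quasi-likelihood F test). Between D7 and D3, where it called 51% of all genes, all 6 were called. The gene per1b had a log2 fold change of -3.02 on D7 against D3 (7.29 and 7.90 CPM against 62.5 and 65.0 CPM, adjusted p = 1.99e-08 by edgeR) and nr1d1 had -2.76 (5.27 and 5.15 CPM against 39.0 and 34.2 CPM, adjusted p = 2.36e-08 by edgeR). The log2 fold changes were -0.92 for per1a and -0.52 for per3, while per2 rose by 0.61 and clocka by 1.80.

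Day by day, the a and b libraries gave calls at 3 of the 4 steps. From D3 to D4, where 20.2% of all genes were called, per1a rose by 2.14, nr1d1 by 1.33 and per3 by 1.21 on the log2 scale. Between D4 and D5 none of the 6 was called by edgeR, beside 3.52% of all genes, and the log2 fold changes were 0.58 for clocka and between -0.41 and 0.09 for the other 5. From D5 to D6, where 3.08% of all genes were called, the log2 fold changes of those called were -2.92 for nr1d1, -2.70 for per1a, -2.60 for per1b and -1.18 for per3. From D6 to D7, where 2.21% were called, clocka rose by 1.24 and nr1d1 fell by 0.77. The fit of all 15 libraries gave smaller values for the D5 to D6 step, -0.57 for nr1d1, -0.53 for per1a, -0.25 for per1b and -0.62 for per3, and no call.

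**Figure D3:**
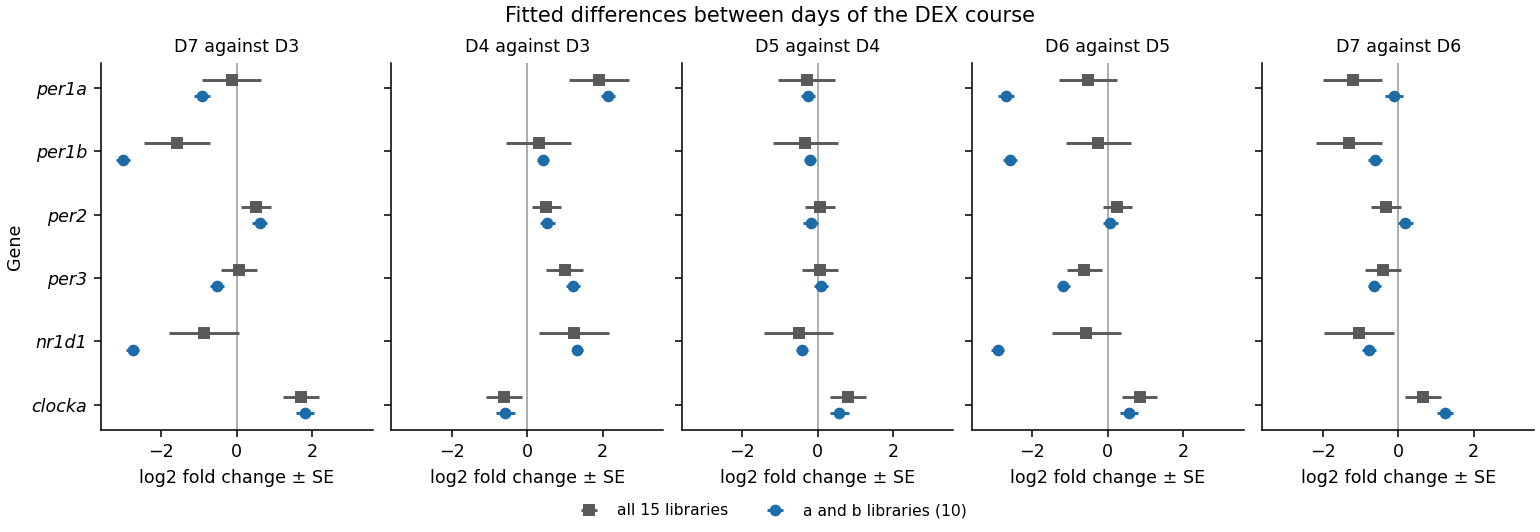
Log2 fold change ± standard error of each clock gene between D7 and D3 and between successive days (later over earlier day), fitted to all 15 DEX libraries (squares) and to the 10 a and b libraries (circles). For nr1d1 on D6 against D5 the circle lies at -2.92 and the square at -0.57, whereas for clocka on D7 against D3 both lie near each other, at 1.80 and 1.70.

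In the second experiment, the mean CPM of each Period gene and of nr1d1 was lower in crispants than in WT larvae in both sets, by amounts that differed between the sets. The labels give neither day nor hour of these libraries, so a difference in either cannot be told apart here from the editing. Over all 10 libraries, 0 of the 6 genes were called by edgeR's quasi-likelihood test, which asked for an adjusted p below 0.05 and a log2 fold change beyond 0.3 in size, and 0.168% of the 23222 genes tested were. Once the set entered the model as a block, the same test called 5 of the 6, beside 5.18% of all genes. Without the block, the unadjusted p was below 0.05 for 4 of the 6 genes in edgeR's test, beside 2738 of the 23222 genes. DESeq2 called 2 of the 6, per1b and per2, and its share of all genes is not given here. The log2 fold changes of crispants over WT were -2.10 for nr1d1 (standard error 0.73, adjusted p = 0.279), -1.91 for per1a (standard error 0.62, adjusted p = 0.249), -1.71 for per2 (standard error 0.39, adjusted p = 0.106), -1.27 for per1b (standard error 0.40, adjusted p = 0.229), -0.92 for per3 (standard error 0.43, adjusted p = 0.434) and -0.21 for clocka (standard error 0.58, adjusted p = 0.934), all by edgeR. Without 1 WT library of the second set, per2 passed the threshold (log2 fold change of per2 -1.88, adjusted p = 0.0478 by edgeR).

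The sets themselves differed in the clock genes. In WT larvae, nr1d1 had 35.6 and 36.3 CPM in the second set and 391, 383 and 406 CPM in the first, and per1a had 13.4 and 10.1 CPM in the second set and 88.6, 89.2 and 85.2 CPM in the first. On the log2 scale the second set of WT larvae against the first gave -3.45 for nr1d1, -2.90 for per1a, -1.93 for per1b, -1.93 for per3, -1.52 for per2 and 2.31 for clocka. In crispants the differences of the second set from the first were -1.96 for nr1d1, -1.56 for per1a, -1.13 for per3, -0.66 for per1b, 1.11 for per2 and 1.53 for clocka. Because the sets were found from the values themselves, these differences are descriptions and carry no test, and no source used here gives the day of each library that could be set beside them.

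Crispants were therefore compared with WT larvae within each set, in a model of group, set and their interaction over all 10 libraries. Because of how the sets were found, the p-values and calls within sets and with the set as a block only describe these libraries. In the second set, per1a had 7.08 and 6.95 CPM in crispants, against 13.4 and 10.1 CPM in WT larvae. In the first set, it had 21.7, 20.2 and 20.3 CPM in crispants, against 88.6, 89.2 and 85.2 CPM in WT larvae. The level of per1a was lower in crispants of both sets. Its log2 fold change was -0.74 in the second set (standard error 0.12, adjusted p = 4.02e-04 by edgeR) and -2.08 in the first (standard error 0.09, adjusted p = 2.8e-13 by edgeR).

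The gene per1b had 49.4 and 44.6 CPM in crispants, against 57.8 and 55.9 CPM in WT larvae of the second set. In the first set it had 73.5, 69.6 and 79.0 CPM in crispants, against 219.5, 221 and 210.1 CPM in WT larvae. All crispant libraries lay below the WT libraries of their set, but only the first set passed the threshold, with a log2 fold change of -1.55 (standard error 0.07, adjusted p = 2.8e-13 by edgeR) against -0.28 in the second set (standard error 0.08, adjusted p = 0.0573). The value of the second set passed it with no filter on low counts (adjusted p of per1b 0.0465 by edgeR) and with at least 10 counts in every library (0.0477).

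The widest gap between the sets was that of per2. In the second set it had 128 and 121 CPM in crispants, against 126 and 133 CPM in WT larvae, and the groups overlapped. The first set gave 61.3, 55.3 and 56.2 CPM in crispants, against 372, 377 and 369.9 CPM in WT larvae. The log2 fold change of per2 was -0.06 in the second set (standard error 0.07, adjusted p = 0.813 by edgeR) and -2.70 in the first (standard error 0.06, adjusted p = 3.82e-17 by edgeR), the smallest adjusted p of the 6 genes.

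The gene per3 had 76.7 and 66.1 CPM in crispants, against 82.3 and 89.8 CPM in WT larvae of the second set. Values of the first set were 159, 161 and 148 CPM in crispants, against 338, 325 and 320.5 CPM in WT larvae. The log2 fold change was -0.27 in the second set (standard error 0.08, adjusted p = 0.0667 by edgeR, or 0.0384 with no filter) and -1.07 in the first (standard error 0.07, adjusted p = 1.16e-10 by edgeR).

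The REV-ERB gene nr1d1 had 22.4 and 20.3 CPM in crispants, against 35.6 and 36.3 CPM in WT larvae of the second set. In the first set it had 81.5, 81.3 and 85.9 CPM in crispants, against 391, 383 and 406 CPM in WT larvae. It was lower in crispants in both sets, with a log2 fold change of -0.75 in the second (standard error 0.08, adjusted p = 1.55e-06 by edgeR) and -2.25 in the first (standard error 0.06, adjusted p = 2.8e-16 by edgeR).

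The gene clocka had 17.7 and 20.3 CPM in crispants, against 22.7 and 28.9 CPM in WT larvae of the second set. In the first set it had 7.09, 6.41 and 6.22 CPM in crispants, against 4.33, 7.03 and 4.15 CPM in WT larvae, and the groups overlapped. Neither set passed the threshold, with log2 fold changes of -0.44 in the second (standard error 0.19, adjusted p = 0.251 by edgeR) and 0.34 in the first (standard error 0.17, adjusted p = 0.156). Without the WT library that had 7.03 CPM, the first set gave 0.63 (adjusted p = 0.0057 by edgeR).

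In all, 2 of the 6 genes were lower and 0 higher in crispants of the second set, where 2.82% of all genes were lower and 2.11% higher, and 5 were lower and 0 higher in the first set, where 16.1% were lower and 10.8% higher. The change in crispants differed between the sets for all 6 genes by the interaction term of edgeR's quasi-likelihood test, which called 15% of all genes. As the sets were found from the values themselves, the p-values of this term and of the comparisons within sets only describe these libraries. The second set minus the first gave 2.64 for per2 (standard error 0.10, adjusted p = 1.41e-13), 1.49 for nr1d1, 1.34 for per1a, 1.28 for per1b, 0.80 for per3 and -0.78 for clocka (standard error 0.26, adjusted p = 0.0433) on the log2 scale. The call for clocka was lost in 8 of the 10 fits that left out 1 library (adjusted p up to 0.202 by edgeR), with values between -1.07 and -0.60. Of the 5 markers of other tissues, 0 were called in the second set, beside 4.93% of all genes. In the first set 2 were called, elavl3 and krt4, both lower in crispants, beside 26.9% of all genes.

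**Figure D4:**
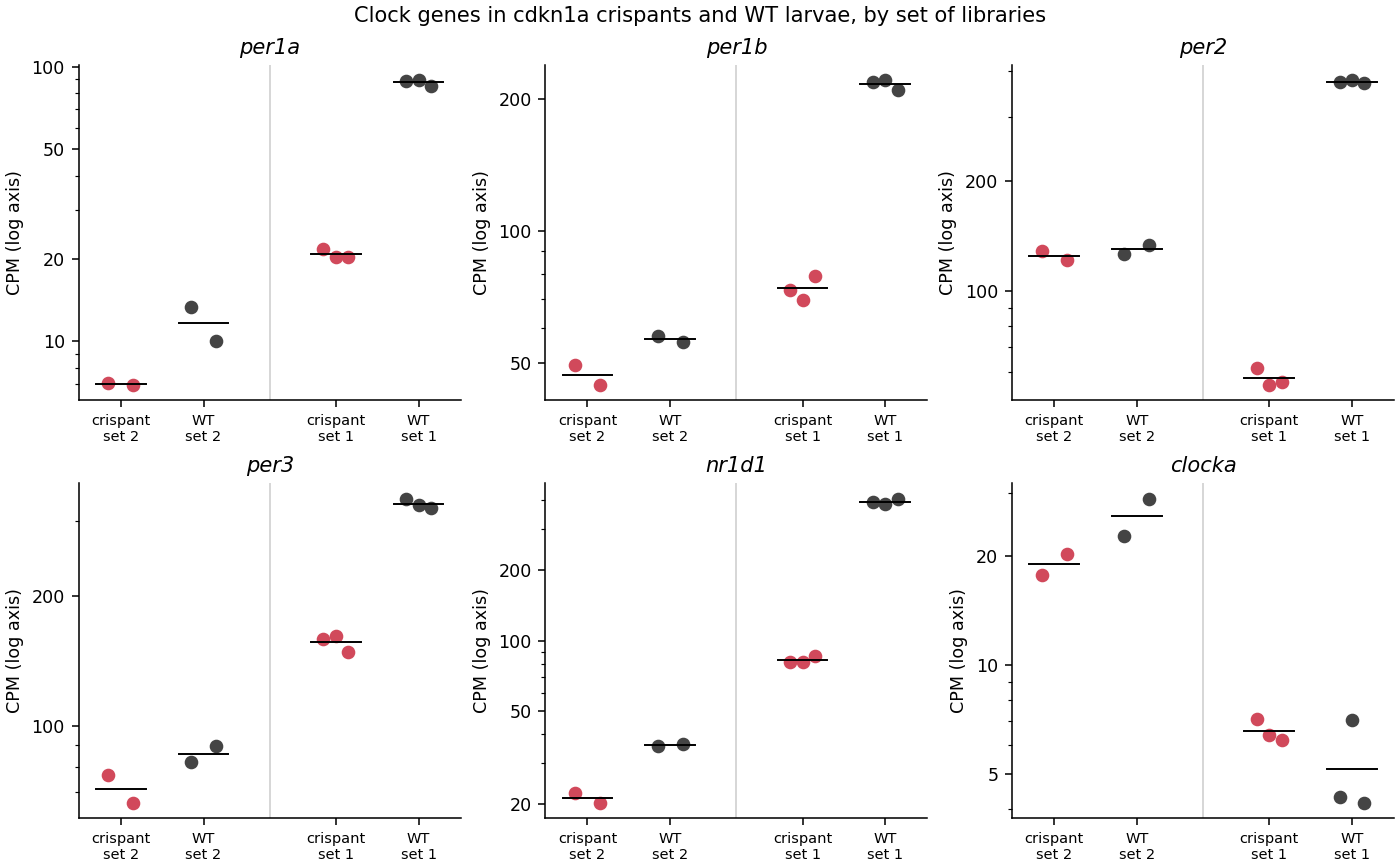
CPM after TMM scaling (log axis) of the 6 clock genes in cdkn1a crispants and WT larvae of the second and of the first set of libraries, with 1 point per library and a bar at the mean. In the first set, the crispant points of per2 lie at 55.3 to 61.3 CPM below WT points at 369.9 to 377 CPM, whereas in the second set both groups lie between 121 and 133 CPM.

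A wider list of 45 clock genes was compared, in 5 groups by role. Within the second set, 11 of the 45 were lower in crispants and 0 higher, and within the first set 22 were lower and 11 higher, beside the 4.93% and 26.9% of all genes called in either direction. The median log2 fold change over the list was -0.17 in the second set and -0.19 in the first, and -0.01 and -0.02 over all genes tested. The change differed between the sets for 29 of the 45, beside 15% of all genes.

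In crispants of the first set, 16.1% of all genes were lower and 10.8% higher. Among the cryptochromes, the partners of the Period proteins, and their photolyase relatives, 4 of 7 fell there and 3 rose. The largest change was that of cry5, a gene of the DNA repair photolyase family that light induces in zebrafish, which had 8.32, 9.26 and 10.2 CPM in crispants, against 89.2, 86.3 and 92.6 CPM in WT larvae. That is a log2 fold change of -3.27, with a standard error of 0.11 (adjusted p = 3.63e-15 by edgeR). The log2 fold change was -2.44 for cry2, and -1.41 (ENSDARG00000011583) and -0.85 (ENSDARG00000045768) for the genes named CRY1. In contrast, cry3b (0.95), cry4 (0.87) and cry3a (0.57) were higher in crispants.

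Of the positive limb, the CLOCK and BMAL partners, 2 of 5 rose and 1 fell in the first set, beside 10.8% and 16.1% of all genes. Both genes named BMAL1 were the ones that rose, by 1.12 (ENSDARG00000006791) and 0.61 (ENSDARG00000035732) on the log2 scale. Members of the REV-ERB and ROR group repress or activate bmal through a shared element. In this group 5 of 10 fell and 3 rose, beside the same shares of all genes. Its largest change was the rise of rorcb, which had 132, 126 and 137 CPM in crispants, against 24.6, 24.1 and 22.7 CPM in WT larvae (log2 fold change 2.46, standard error 0.07, adjusted p = 6.89e-16 by edgeR).

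Of the output regulators, which pass the rhythm on to other genes, 10 of 15 fell and 2 rose in the first set, beside 16.1% of all genes lower and 10.8% higher. The D-box activators tefa (-1.66), dbpa (-1.62), dbpb (-1.56), tefb (-1.06) and hlfa (-0.77) were all lower in crispants of the first set, as were the repressors ciartb (-2.11), bhlhe41 (-1.92), ciarta (-1.79), nfil3-6 (-1.20) and bhlhe40 (-0.63). By contrast nfil3-5, of the same D-box repressor family as nfil3-6, was higher (1.45). The last list held casein kinases and F-box proteins that act on the stability of clock proteins, together with timeless and tipin. Of its 8 genes 2 fell and 1 rose, beside the same 16.1% and 10.8% of all genes. The rise was that of fbxl3l, with a log2 fold change of 2.39 (standard error 0.34). Its level was low, at 0.265 to 0.652 CPM in WT larvae and 1.65 to 4.18 CPM in crispants of the first set.

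In the second set, 2.82% of all genes were lower in crispants. The lower genes of the list were 8 of the 15 output regulators, 2 of the REV-ERB and ROR group and 1 casein kinase gene. The largest of these changes was that of nr1d2a, a REV-ERB beta gene, with 109.5 and 106 CPM in crispants, against 267 and 258 CPM in WT larvae (log2 fold change -1.28, standard error 0.07, adjusted p = 5.36e-11 by edgeR). The log2 fold change there was -1.03 for klf9, a glucocorticoid-inducible factor, and -0.81 for nfil3-6. Over all 10 libraries, nfil3-6 was the only gene of the 45 that passed the thresholds. It had 48.1 and 39.6 CPM in crispants and 79.9 and 73.8 CPM in WT larvae of the second set, and 54.7, 57.2 and 53.4 CPM in crispants and 130.0, 135 and 114 CPM in WT larvae of the first, with a log2 fold change of -1.08 (standard error 0.18, adjusted p = 0.0447 by edgeR). That call was lost in 8 of the 10 fits that left out 1 library, and with RLE scaling (adjusted p of nfil3-6 0.0503 by edgeR).

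**Figure D5:**
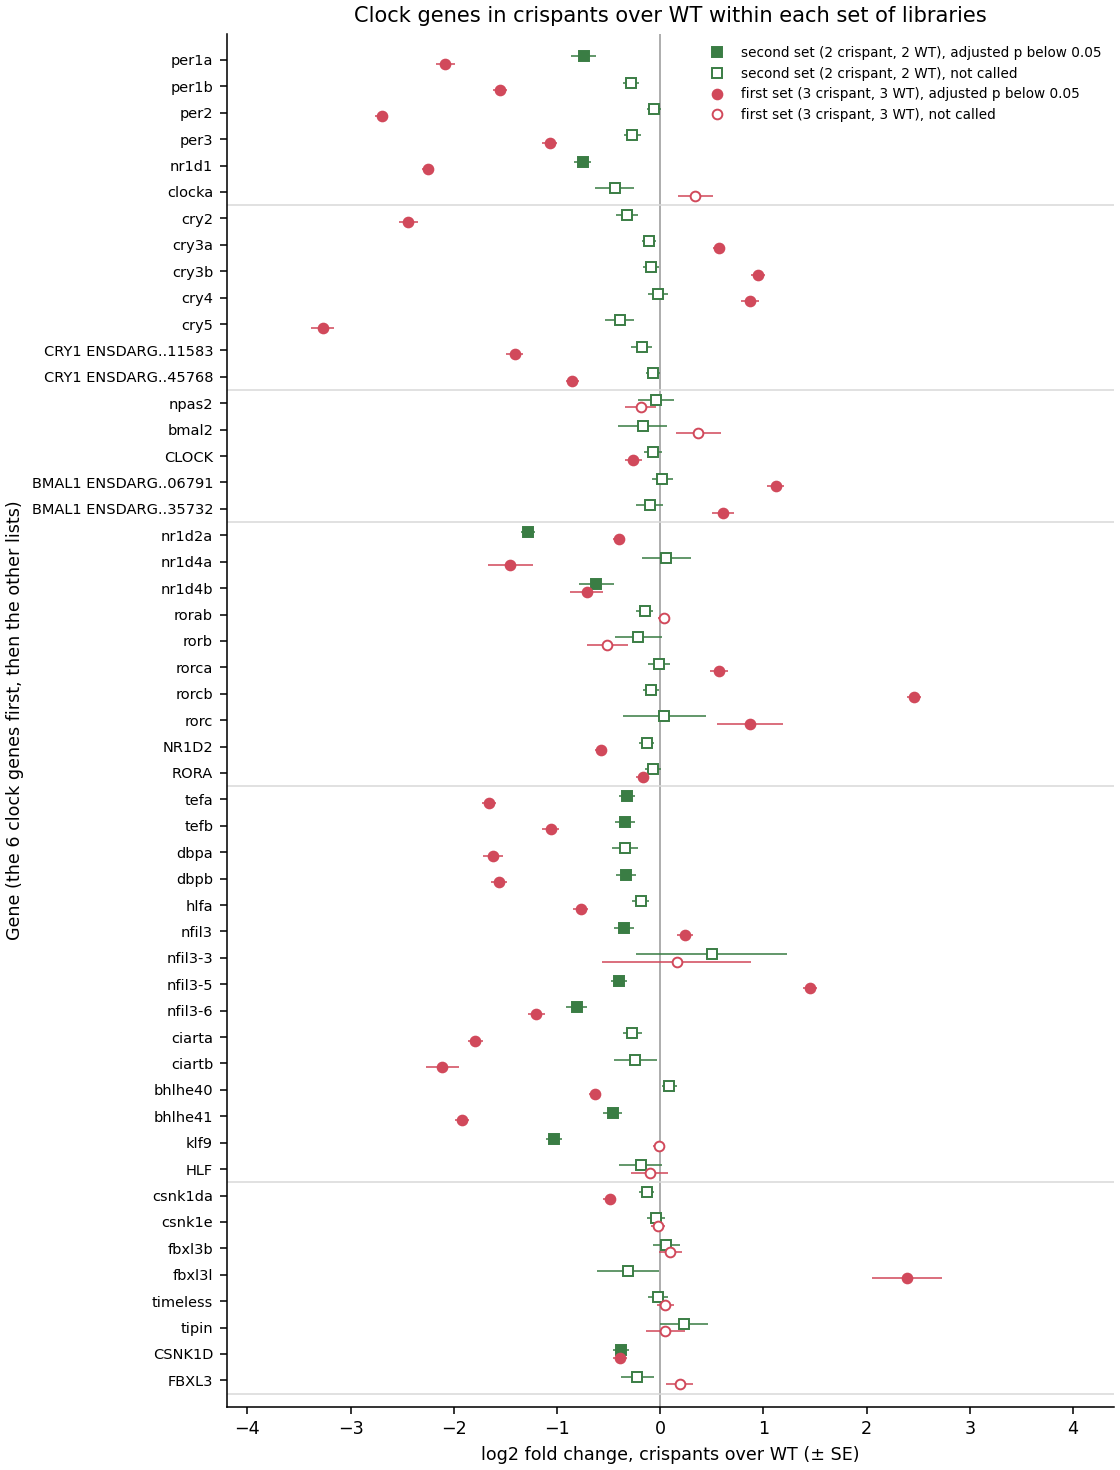
Log2 fold change ± standard error of crispants over WT larvae within the second set (squares) and the first set (circles) for the 6 clock genes and 45 other clock genes in 5 groups, with filled points where the adjusted p was below 0.05. The first set reaches -3.27 for cry5 and 2.46 for rorcb, whereas the largest change among these genes in the second set is -1.28, for nr1d2a.

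Over the DEX course, 17 of the 44 other clock genes tested differed between any days, beside 17% of all genes. Between D7 and D3, 15 were higher and 2 lower on D7, beside 11.8% and 13.5% of all genes. The median log2 fold change of D7 over D3 was 0.79 over these 44 genes and 0.06 over all genes tested. The largest change was that of klf9, with 248, 236 and 212 CPM on D7, against 22.5, 19.6 and 28.1 CPM on D3 (log2 fold change 3.31, standard error 0.29, adjusted p = 2.75e-05 by edgeR).

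The other activators that shared the direction of clocka were npas2, a paralog of CLOCK, with a log2 fold change of 2.67, and the CLOCK copy ENSDARG00000003631, with 1.03. For npas2 the D7 libraries had 20.7, 22.6 and 3.99 CPM, and thus the c library again lay near the D3 values of 3.55, 2.43 and 1.43 CPM. The ROR genes rorcb (2.74), rorca (1.90) and rorab (0.93), the D-box factor hlfa (1.98) and the cryptochromes cry3b (1.87) and CRY1 (ENSDARG00000045768, 0.87) were also higher on D7, and tipin, a replication fork protein that binds Timeless, was lower (-1.09). The values of fbxl3l (1.81, adjusted p = 0.0631), nfil3-5 (1.64, 0.0587), nr1d4b (1.21, 0.239), nfil3-6 (1.08, 0.136) and BMAL1 ENSDARG00000035732 (0.73, 0.0661) did not pass the threshold between D7 and D3 in edgeR's test, although each differed between any days, and DESeq2 called fbxl3l (adjusted p = 0.0261), nfil3-5 (0.0164) and BMAL1 ENSDARG00000035732 (0.0355). These counts rest in part on single libraries: leaving out either a or b of D3 gave 11 calls among the 44 between D7 and D3 in place of 17. The share of all genes in those fits is not given here.

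The spread of the 6 genes over libraries varied widely. In the DEX course the SD of log2 CPM over 15 libraries was 1.46 for nr1d1, 1.33 for per1b, 1.24 for per1a, 0.98 for clocka, 0.71 for per3 and 0.49 for per2, beside a median of 0.50 over all genes tested. In the second experiment it was 1.69 for nr1d1, 1.46 for per1a, 1.11 for per2, 1.04 for clocka, 0.93 for per1b and 0.91 for per3 over 10 libraries, beside a median of 0.33, and 99.8% of genes had a smaller SD than nr1d1.

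The genes also moved together to different degrees. In the DEX course, per1b and nr1d1 lay on the same side of their own mean in 14 of the 15 libraries, and per1a shared its side with nr1d1 in 13 and with per3 in 13. By this count clocka shared its side with per1b in 4 of 15 libraries. In the second experiment it shared its side with per3 in 0 of 10. These counts are descriptions, since the c libraries of the course, and the libraries of a set, have much in common.

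The 3 genes most like each of the 6 were found as those with the smallest root mean square difference in log2 CPM, each gene centred on its own mean, over the 15 DEX libraries and 17269 genes. For per1b these were ciarta (0.35), nr1d1 (0.35) and ciartb (0.63), and for nr1d1 they were per1b (0.35), ciarta (0.54) and per1a (0.54). For per1a they were si:dkey-18a10.3 (0.47), nr1d1 (0.54) and tefa (0.63). For per3 they were cipcb (0.24), which belongs to the family of the CLOCK-interacting pacemaker protein, NR1D2 (ENSDARG00000009594, 0.41) and tefa (0.42). The genes nearest to per2 were DAZAP1, APAF1 and ENSDARG00000100084 (0.20 each), and those nearest to clocka were KPNA6 (0.31), TMEM86A (0.33) and SREBF1 (0.37), none of which stood in the clock lists. Over the 10 libraries of the second experiment, cipcb was again the gene most like per3 (0.11). For every other member the nearest gene was not the one of the DEX course. It was nr1d1 (0.27) for per1a, HSF2 (0.11) for per1b, fthl29 (0.24) for per2, LCT (0.23) for nr1d1 and NYAP2 (0.22) for clocka.

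Beside the clock genes, the glucocorticoid-induced receptor co-chaperone gene fkbp5 had 657, 721 and 257 CPM on D7, against 93.4, 82.3 and 164 CPM on D3. In the second experiment fkbp5 had 110.1 and 119.5 CPM in crispants, against 424 and 239.5 CPM in WT larvae of the second set, and 372, 377 and 394 CPM in crispants, against 558, 558 and 618 CPM in WT larvae of the first. The glucocorticoid list also held nr3c1 and tsc22d3. Their means on D7 against D3 were 71.8 against 60.9 CPM for nr3c1 and 365 against 96.3 CPM for tsc22d3. In the first set the mean of nr3c1 was higher in crispants than in WT larvae (78.5 against 65.6 CPM) and that of tsc22d3 lower (178 against 199 CPM). In the second set both means were lower in crispants (88.7 against 95 CPM and 148 against 252 CPM). The part of these genes in the clock gene values was not tested.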

How the data were processed

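Per the submitters' processing notes, the authors used Trim Galore, STAR (2.7.8) with GRCz11 and HTSeq (0.13.5), and deposited raw counts per Ensembl gene, without normalization, in 1 table per experiment. The annotation release and strand setting are not given in the sources used here, so counts of overlapping genes are uncertain. Whether reads were exchanged between copies that share a symbol (per1a and per1b, the CRY1, BMAL1 and CLOCK copies) was not tested. The name table paired 29201 of the 32520 identifiers with a symbol, and 55 of 66 listed symbols were matched. The 6 genes, the lists and the tests were chosen with earlier results of these data known. Letters were taken for replicate numbers (a as 1, b as 2, c as 3), and crispant columns, whose names repeat, as members of their group without a number.

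The quasi-likelihood test of edgeR (4.0.16, in R 4.3.3) was run after filterByExpr and TMM scaling, with Benjamini-Hochberg adjustment over all genes tested and calls at 0.05. Crispants over all 10 libraries also needed a log2 fold change beyond 0.3 in size. A standard error is the log2 fold change divided by the square root of F. Log2 CPM used a prior count of 2. The 2 experiments were scaled and tested separately, and no level was compared between genes. Every pair of replicates differed by at least 4.39 times binomial sampling, so none was merged. The scripts were tested on simulated data. Named list genes were those called between any days or in crispants, at most 15 by size of the change between D7 and D3, and, chosen after their values were seen, the within-set genes. The genes nearest each of the 6 needed a mean log2 CPM of at least 1. Alternatives were RLE scaling, 2 other filters, DESeq2 (1.42.0), the replicate block, the a and b libraries alone, the set as a block or alone, and leaving out each library.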

Additional observations from a re-analysis of the deposited data

Results flagged for a closer look

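The change of all 6 genes in crispants against WT larvae differed between the 2 sets of libraries by the interaction term of edgeR's quasi-likelihood test. That term called 15% of all genes, and the sets were found from the values themselves, so the result is a description. The second set minus the first was 2.64 for per2, 1.49 for nr1d1, 1.34 for per1a, 1.28 for per1b and 0.80 for per3 on the log2 scale, so that these genes were less reduced, or not reduced, in crispants of the second set. For clocka it was -0.78, a call that rests on single libraries. No single library was flagged for any gene over the 5 crispant or the 5 WT libraries (12 tests), but with each group split 3 to 2 by set such a test could hardly single one out.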

How the results depend on the processing

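Counts of clock genes called, out of 6, moved as follows. With the a and b libraries only, a choice made from the values, 5 differed between any days, 6 between D7 and D3 and 5 between successive days, in place of 1, 1 and 0. That fit called 48.3% of all genes between any days, 51% between D7 and D3 and 2.21% to 20.2% at each step between successive days. Each day against the other 4 days gave 1 with DESeq2 and 1 in the five-group model, in place of 0. Crispants against WT over all libraries gave 2 with DESeq2, 5 with the set as a block (where 5.18% of all genes were called), 5 in the first set alone and 2 in the second set alone, in place of 0. The shares of all genes beside the DESeq2 counts and beside those of each set alone are not given here, so these counts cannot be weighed. The block and the fits of each set alone also called cdkn1a (-1.16 with the block, -1.06 in the first set alone and -1.29 in the second set alone). Leaving out each library gave 0 to 1 for each day against the others, 0 to 2 between any days, 0 to 1 between D7 and D3, 0 to 2 for the letter, 0 to 1 for crispants and 5 to 6 for the interaction. RLE scaling and the filters moved none of these counts. For the fits that left out a library, the shares of all genes are not given here.

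Directions turned with the a and b libraries only for per2 between D5 and D4 (-0.18) and between D7 and D6 (0.19) and for per3 between D7 and D3 (-0.52, and -0.0035 with no filter). For clocka in crispants they turned with the set as a block (0.0016) and in the first set alone (0.36). Leaving out each library gave D7 over D3 values of -0.73 to 0.22 for per1a and -0.33 to 0.31 for per3, D4 over D3 values of -0.00083 to 0.63 for per1b, D5 over D4 values of -0.66 to 0.13 for per1a, -0.74 to 0.11 for per1b, -0.34 to 0.28 for per2 and -0.27 to 0.46 for per3, D6 over D5 values of -2.19 to 0.22 for per1b and -0.34 to 0.66 for per2, D7 over D6 values of -1.85 to 0.55 for per1a, -2.55 to 0.63 for per1b, -0.57 to 0.29 for per2 and -2.69 to 0.90 for nr1d1, and crispant values of -0.52 to 0.28 for clocka. None of the turned values of these genes passed the threshold except that of per3 with the a and b libraries only, and the cause was not tested.

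Of the 30 pairs of DEX libraries with the same letter, 29 had a correlation of deviations above 0.1 (mean 0.422, lowest 0.073). The mean was 0.368 among a, 0.341 among b and 0.558 among c libraries, and 6 of the 15 libraries correlated best with their own letter. The main fits did not take the letters as pairs, although the c libraries had much in common. Correlations between different letters are not given here, so the values for a and b do not show that a letter was shared. With the letter as a replicate block, the calls among the 6 genes remained 0 for each day against the others, 1 between any days, 1 between D7 and D3 and 0 between successive days. Calls over all genes went to 29.5% between any days and to 36.5% between D7 and D3. The block also brought fbxl3l (1.79, adjusted p = 0.0307 by edgeR) and nfil3-5 (1.64, 0.0327) past the threshold between D7 and D3. For crispants against WT, no paired analysis was possible because the crispant column names repeat, so only the set could be used as a block. With 2 or 3 libraries a group, small differences could be missed where libraries of a group lay far apart. For nr1d1 the standard error was 0.93 between D7 and D3, and 0.08 for crispants against WT within the second set.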
